A study of Homo sapiens with 12 samples.

Results

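The response of ATG7 KO cells to hydrogen peroxide (H2O2) was followed in 6 of the 12 libraries of the study. These are the 3 libraries labelled ATG7 KO with 200 μM H2O2 for 12 h and the 3 libraries labelled ATG7 KO at 0 h. Of 58735 annotated genes, the 15475 that passed a filter on low counts in them entered the comparison. All cells were HLE-B3, a virus-immortalized epithelial line from human lens, grown in medium with fetal bovine serum. The ATG7 KO cells were made with CRISPR/Cas9 and puromycin selection and grown from picked colonies, and the sources used here do not say which clone was sequenced, or whether the 3 libraries of a group came from 1 clone. The remaining 6 libraries were WT cells under the same 2 conditions, 3 untreated and 3 with 200 μM H2O2 for 12 h, and serve here only to set the ATG7 KO response beside that of WT cells. Since untreated cells were taken at 0 h, an effect of H2O2 cannot be told apart from 12 h in culture. In bulk RNA, fewer cells of a state and less RNA per cell cannot be told apart either.

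H2O2 is a cell-permeable oxidant that damages DNA, proteins and lipids. Cells answer it through several transcription programs. Damaged DNA stabilizes p53, which switches on inhibitors of the cell cycle and genes of cell death. Oxidized KEAP1 releases NRF2, which drives genes of glutathione and thioredoxin metabolism, and uncharged tRNA or misfolded protein leads to translation of ATF4. Kinase signalling raises immediate early genes and NF-κB target genes within minutes to hours. ATG7 is the E1-like enzyme that starts the conjugation of LC3 and ATG12 in autophagy, and p62 (SQSTM1) is a receptor that autophagy degrades. Lens epithelial cells face H2O2 in the aqueous humor throughout life.

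The 6 ATG7 KO libraries held 16698076 to 17659496 counted reads each. Untreated replicate 1 stood apart. Its log2 counts scaled to library size correlated with the other two untreated libraries at a mean Pearson r of 0.976 across genes, whereas libraries of the H2O2 group correlated at 0.996. Among 7291 genes with a mean of at least 5 FPKM in untreated cells, 341 differed by more than 1 on the log2 scale between untreated replicate 1 and the mean of replicates 2 and 3, against 5 between replicates 2 and 3. Short genes were higher and long genes lower in that library. HSPG2, the long proteoglycan perlecan, had 1.34 FPKM in untreated replicate 1 and 7.23 and 6.99 FPKM in replicates 2 and 3, and the ubiquitin ligase UBR4 had 3.79, 17.9 and 16.5 FPKM. Counts over lists are therefore also given without untreated replicate 1, as are the values of genes that the results turn on. With that library left out, 0 of the named genes that rose or fell lost their call, 10 gained one, and 2 (PRDX1 and ID2) changed sign. The level of ATG7 mRNA does not check the label, since a guide-edited allele can still be transcribed. ATG7 (chromosome 3, 11272309 to 11557665, GRCh38) had 3.78, 3.42 and 3.43 FPKM in untreated and 2.11, 2.12 and 2.35 FPKM in H2O2-treated ATG7 KO cells.

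The cells were checked against markers of cell type. Of 10 markers of lens epithelium, 4 were above 1 FPKM in at least 1 of the groups. These were the gap junction gene GJA1, the cadherin gene CDH2 and the transcription factors PAX6 and SIX3. PAX6 had 0.586, 1.32 and 1.16 FPKM untreated (mean 1.02) and 0.505, 0.594 and 0.582 FPKM with H2O2 (mean 0.56). Untreated replicate 1 lay within the treated range. The change of PAX6 did not pass the edgeR test used below (adjusted p = 0.0459), and PAX6 fell without untreated replicate 1. FOXE3, a defining factor of lens epithelium, had no read in any of the 6 libraries, and PROX1, MAF and CRYAA were near 0. All 8 mesenchymal markers were above 1 FPKM, and their summed level was between 801 and 878 FPKM in untreated and between 539 and 553 FPKM in H2O2-treated libraries. Of the markers of other cell types, 1 of 10 for lens fibre (CRYGS), 1 of 6 for immune cells (CD14), 0 of 4 for endothelium and 0 of 6 for surface epithelium were above 1 FPKM. The replicates are biological according to the study.

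The question of the comparison was which genes of autophagy-deficient cells change within 12 h of H2O2. On 15475 genes, edgeR's quasi-likelihood test called 2107 genes (13.6%) as risen and 1918 (12.4%) as fallen at a Benjamini-Hochberg adjusted p under 0.01. Differential expression also required a log2 fold change beyond 1 and a mean above 1 FPKM in a group, and was met by 943 genes (6.09%) that rose and 791 (5.11%) that fell. Without untreated replicate 1, 4768 of 16002 genes (29.8%) rose and 4573 (28.6%) fell at the same adjusted p. The counts fell when another library was left out, to 1231 genes that fell without untreated replicate 3, and to between 1045 and 1046 that rose and between 722 and 740 that fell without 1 of the H2O2 libraries. Differentially expressed genes numbered 1000 higher and 889 lower without untreated replicate 1, and 728 higher and between 495 and 520 lower without 1 of the H2O2 libraries. The median log2 fold change over all genes tested was -0.03. Log2 fold changes are of H2O2 over untreated, with their standard error (SE). Gene symbols below are those of the deposited table, and "rose" and "fell" are used of genes past the adjusted p of 0.01 with all 6 libraries unless it is stated otherwise.

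The largest rises included genes that were almost silent in untreated cells. TREM2, a lipid-sensing receptor best known from myeloid cells, had 0, 0 and 0.0493 FPKM in untreated and 12.5, 12.2 and 13.0 FPKM in H2O2-treated cells. It had 1 read in the untreated and 701 reads in the treated libraries together, a ratio of 699 after scaling for library size (exact 95% interval 125 to 27700, counting error only). GRHL3, a transcription factor of epidermal differentiation, went from 3 reads to 1455, a ratio of 484 (165 to 2350), and reached 7.56, 7.18 and 7.02 FPKM. The adhesion genes CDH10 and NECTIN4 were below 0.33 FPKM in each untreated library. CDH10 reached 23.8, 21.9 and 21.3 FPKM (log2 fold change 6.5, SE 0.24, adjusted p = 8.69e-06), and NECTIN4 reached 8.37, 8.67 and 9.04 FPKM (6.61, SE 0.18, adjusted p = 2.97e-06).

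AREG, which encodes the EGF receptor ligand amphiregulin, had 0.478, 0.477 and 0.688 FPKM untreated and 209, 193 and 191 FPKM with H2O2. Its log2 fold change was 8.47 (SE 0.17, adjusted p = 2.51e-06). GDF15, a secreted stress cytokine, reached a mean of 468 ± 5.92 FPKM (SD, n = 3) from 1.41 ± 0.254 FPKM. ACER2, an alkaline ceramidase of the Golgi, rose from 0.190, 0.702 and 0.483 FPKM to 25.5, 25.1 and 23.4 FPKM (log2 fold change 5.72, SE 0.30). The noncoding LINC01173 had 5 reads untreated and 205 with H2O2. Reads of 2 further genes among these 12 cannot be told apart from those of a larger gene around them: MIR3189 lies within GDF15, and AC025423.1 within MDM2. Without untreated replicate 1, the log2 fold changes of the 12 genes were all still past the thresholds, which the rule that chose them required.

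Most of the 12 genes that fell furthest act in mitosis. PLK1, the kinase of mitotic entry and spindle assembly, had 25.0, 27.3 and 27.0 FPKM untreated and 2.26, 1.98 and 1.97 FPKM with H2O2. Its log2 fold change was -3.68 (SE 0.11, adjusted p = 4.93e-06) and was -3.72 without untreated replicate 1. CCNB1 (cyclin B1) had 132, 90.5 and 93.4 FPKM untreated and 10.1, 10.7 and 10.2 FPKM with H2O2, a log2 fold change of -3.35 (SE 0.17, adjusted p = 2.87e-05). The lowest untreated library lay above the highest treated library for both genes. The log2 fold changes of the other 10 were PSRC1 (-3.51), MXD3 (-3.42), HMMR (-2.94), KIF20A (-2.93), DLGAP5 (-2.90), AURKA (-2.89), BUB1 (-2.84), CDC20 (-2.81), NEK2 (-2.79) and DEPDC1 (-2.77). MXD3 is a MAX dimerization partner expressed in proliferating cells, and the kinases AURKA, BUB1 and NEK2, the motor KIF20A, and CDC20, an activator of the anaphase-promoting complex, work on the spindle or at its checkpoint. KIF20A and MXD3 each overlap other expressed genes, some of them on the opposite strand.

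**Figure D1:**
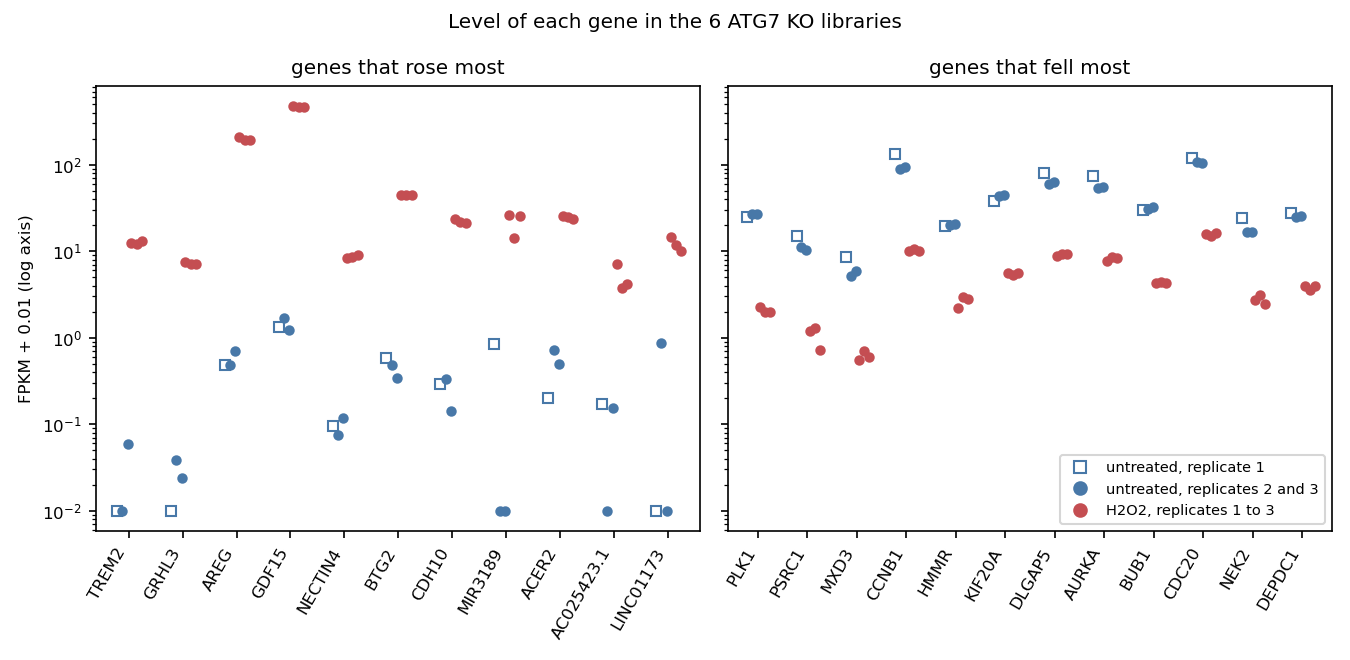
FPKM plus 0.01 on a log axis for 11 of the 12 genes that rose most and the 12 that fell most, 1 point per ATG7 KO library, with open squares for untreated replicate 1. Points at the foot of the axis are libraries with 0 FPKM, GDF15 reached between 464 and 475 FPKM with H2O2, and the treated and untreated libraries do not overlap for any gene, as the choice of genes required.

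Among 25 target genes of p53, 24 rose and 0 fell, against 13.6% of all genes tested that rose. The median log2 fold change was 2.77, and without untreated replicate 1 all 25 rose, beside 29.8% of all genes. BTG2, an antiproliferative gene, had 0.572, 0.468 and 0.333 FPKM untreated and 44.7, 45.1 and 44.1 FPKM with H2O2, a log2 fold change of 6.60 (SE 0.17, adjusted p = 2.97e-06). CDKN1A, which encodes the cyclin-dependent kinase inhibitor p21, had 51.1, 46.3 and 46.1 FPKM untreated and 1713, 1694 and 1662 FPKM with H2O2. Its log2 fold change was 5.14 (SE 0.12, adjusted p = 2.58e-06). In the fit lacking untreated replicate 1, BTG2 rose by 6.78 and CDKN1A by 5.18. CCNG1 (cyclin G1) was the target that did not pass. It had 61.0, 40.0 and 42.7 FPKM untreated and 64.1, 65.0 and 59.0 FPKM with H2O2 (log2 fold change 0.39, adjusted p = 0.0981), and without untreated replicate 1 it rose by 0.59.

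Of 20 mitotic genes, 19 fell and 0 rose, with a median log2 fold change of -1.87 beside -0.03 over all genes, and 12.4% of all genes tested fell. The exception was MKI67, the proliferation antigen Ki-67. It had 15.7 FPKM in untreated replicate 1, 41.3 and 40.2 FPKM in untreated replicates 2 and 3, and 16.2, 17.0 and 17.4 FPKM with H2O2. Its log2 fold change was -0.95 (adjusted p = 0.0601) with all libraries and -1.28 without untreated replicate 1, where all 20 genes fell, beside 28.6% of all genes. CCNG1 and MKI67 were named after their values were seen, as the only uncalled members of their lists.

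Of 20 genes of DNA replication and the G1/S transition, 6 rose and 1 fell, with a median of 0.06, beside 13.6% and 12.4% of all genes. The counts were 10 and 6 without untreated replicate 1, beside 29.8% and 28.6%. CCNE2 (cyclin E2) had 6.25, 6.53 and 6.72 FPKM untreated and 16.4, 16.8 and 16.2 FPKM with H2O2 (log2 fold change 1.33, SE 0.09, adjusted p = 5.73e-05). PCNA, the sliding clamp and itself a p53 target, had 302, 174 and 180 FPKM untreated and 560, 536 and 525 FPKM with H2O2 (1.30, SE 0.22, adjusted p = 0.00316). MCM6, a subunit of the replicative helicase, fell by 0.53 on the log2 scale (adjusted p = 0.00411). The calls of PCNA and MCM6 were lost without each of the other 5 libraries, with adjusted p up to 0.0177 and 0.0328, both without H2O2 replicate 1.

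Many genes of mitosis carry a cell cycle homology element close to their start, a short site bound by the MuvB complexes that repress them outside G2 and M phase. Its core TTTGAA was searched on both strands in RefSeq promoter windows of GRCh38.p14, from 250 bases before to 50 after the start, for the 7566 tested genes that have exactly 1 window. It was found in 83 of 398 windows (20.9%) of differentially expressed genes that fell, in 31 of 465 (6.67%) of those that rose, and in 708 of 7566 (9.36%) of all. Without untreated replicate 1, the shares were 21.1% of 421 windows and 7.13% of 463. Among the mitotic genes, 9 of 14 windows held it. The 100 bases before the start of 5 of these genes, chosen after the matches were seen, are shown for the place of the core, in capitals, which is TTCAAA in KIF11, where it lies on the opposite strand.
PLK1: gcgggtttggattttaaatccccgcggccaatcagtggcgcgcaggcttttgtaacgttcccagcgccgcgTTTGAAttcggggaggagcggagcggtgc
CCNB2: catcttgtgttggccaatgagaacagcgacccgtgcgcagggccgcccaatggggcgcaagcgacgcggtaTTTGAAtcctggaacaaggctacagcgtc
BUB1B: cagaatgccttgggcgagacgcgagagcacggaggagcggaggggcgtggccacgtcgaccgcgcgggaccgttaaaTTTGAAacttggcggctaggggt
KIF11: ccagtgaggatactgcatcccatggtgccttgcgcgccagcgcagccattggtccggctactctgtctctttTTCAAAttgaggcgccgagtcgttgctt
CDC20: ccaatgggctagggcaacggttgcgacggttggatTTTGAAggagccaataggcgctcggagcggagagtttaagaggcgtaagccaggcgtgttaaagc

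These stretches lie at chr16:23678789-23678888 for PLK1, chr15:59105046-59105145 for CCNB2, chr15:40160969-40161068 for BUB1B, chr10:92593030-92593129 for KIF11 and chr1:43358881-43358980 for CDC20, all on the plus strand. The core began 29 bases before the start in PLK1 and CCNB2, 28 in KIF11, 23 in BUB1B and 65 in CDC20. The log2 fold changes of these genes were -3.68, -2.56, -1.49, -1.62 and -2.81 for PLK1, CCNB2, KIF11, BUB1B and CDC20. A match of letters is a description and not evidence of binding.

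Immediate early genes and MAP kinase phosphatases, which answer and then restrain growth factor and stress kinases, included 13 risen and 0 fallen genes among 23, with a median log2 fold change of 0.89. Without untreated replicate 1, 17 rose and 0 fell. Of all genes, 13.6% rose and 12.4% fell, and 29.8% and 28.6% without untreated replicate 1. DUSP5, a nuclear phosphatase of ERK, had 6.21, 5.41 and 5.12 FPKM untreated and 43.7, 44.0 and 45.4 FPKM with H2O2 (2.99, SE 0.10, adjusted p = 7.32e-06). EGR2, a zinc finger transcription factor, had 0.181, 0.350 and 0.307 FPKM untreated and 1.41, 1.12 and 1.70 FPKM with H2O2 (2.32, SE 0.29). The AP-1 subunits FOS and FOSB rose but stayed low. FOS had 0.281, 0.208 and 0.234 FPKM untreated and 0.848, 0.489 and 0.872 FPKM with H2O2, a log2 fold change of 1.61 (adjusted p = 0.00612). FOSB had means of 0.510 ± 0.111 and 1.13 ± 0.104 FPKM (SD, n = 3), a log2 fold change of 1.14 (adjusted p = 0.00424). The calls of FOS and FOSB were lost without each of 4 single libraries, with adjusted p up to 0.0302 for FOS without H2O2 replicate 1 and 0.0230 for FOSB without H2O2 replicate 3. With untreated replicate 1 left out, DUSP5 had a log2 fold change of 3.06, FOS of 1.72 and FOSB of 0.98.

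Among 19 target genes of NF-κB, 7 rose and 1 fell, with a median of 0.21, beside 13.6% and 12.4% of all genes. Without untreated replicate 1, 11 rose and 4 fell, beside 29.8% and 28.6%. The members that rose were cytokines, chemokines and the deubiquitinase gene TNFAIP3. IL1B, which encodes interleukin-1β, had 64.2, 43.0 and 46.0 FPKM untreated and 497, 458 and 461 FPKM with H2O2 (log2 fold change 3.21, SE 0.18, adjusted p = 3.69e-05). IL6 had 24.6, 14.3 and 15.8 FPKM untreated and 119, 114 and 111 FPKM with H2O2 (2.65, SE 0.21, adjusted p = 0.000129). The monocyte chemokine CCL2 moved the other way, from 92.7, 51.5 and 54.2 FPKM to 8.79, 9.20 and 11.8 FPKM (-2.74, SE 0.26, adjusted p = 0.000289). These were 3.39 for IL1B, 2.91 for IL6 and -2.42 for CCL2 without untreated replicate 1. NFKBIA, the inhibitor IκBα and itself a target, did not pass the test with all libraries. It had 166, 113 and 118 FPKM untreated and 101, 92.9 and 100 FPKM with H2O2 (-0.44, adjusted p = 0.0560), and -0.25 (adjusted p = 3.56e-11) without untreated replicate 1.

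The pathway that links p62 to NF-κB through atypical protein kinase C and the IKK complex had 3 risen and 1 fallen of 16 genes, with a median of 0.07, beside 13.6% and 12.4% of all genes. It had 6 risen and 5 fallen without untreated replicate 1, beside 29.8% and 28.6%. SQSTM1 (p62) had 37.7, 33.9 and 35.0 FPKM untreated and 51.8, 52.1 and 53.2 FPKM with H2O2, a log2 fold change of 0.56 (SE 0.09, adjusted p = 0.00256). It overlaps MGAT4B, which is expressed from the opposite strand. TAB3, an adaptor of the kinase TAK1, rose from 5.44, 7.0 and 7.02 FPKM to 22.6, 21.6 and 21.6 FPKM (1.75, SE 0.13, adjusted p = 9.78e-05). CHUK (IKKα) rose by 0.58 (adjusted p = 0.00498), and TAB1, a further TAK1 partner, fell by 0.69 on the log2 scale (adjusted p = 0.00359). PRKCI, which encodes the atypical protein kinase Cι, had a log2 fold change of -0.18 (adjusted p = 0.158), RIPK1 of 0.32 (adjusted p = 0.0422) and the NF-κB subunit gene RELA of 0.30 (adjusted p = 0.0749). These 3 were -0.25, 0.26 and 0.19 and past the adjusted p without untreated replicate 1. The calls of SQSTM1 and CHUK were lost without each of the 5 other libraries and that of TAB1 without 4 of them, with adjusted p up to 0.0207 without H2O2 replicate 3 for SQSTM1, and 0.0302 and 0.0249 without H2O2 replicate 1 for CHUK and TAB1.

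Of 21 ATF4 target and amino acid stress genes, 14 rose and 0 fell, with a median log2 fold change of 0.94. With untreated replicate 1 left out, 17 rose and 1 fell. Of all genes, 13.6% rose and 12.4% fell, and 29.8% and 28.6% without untreated replicate 1. Besides GDF15, the transcription factor ATF3 rose most, from 1.29, 1.78 and 2.15 FPKM to 35.8, 36.8 and 35.2 FPKM (4.36, SE 0.19, adjusted p = 2.14e-05). Of 18 chaperones and regulators of the unfolded protein response in the endoplasmic reticulum, 1 rose and 3 fell, with a median of -0.25, beside 13.6% and 12.4% of all genes. The counts were 3 and 9 without untreated replicate 1, beside 29.8% and 28.6%. HSPA5, the chaperone BiP, had 226, 171 and 166 FPKM untreated and 104, 106 and 111 FPKM with H2O2 (-0.81, SE 0.14, adjusted p = 0.00325). HSP90B1 (GRP94) had 317, 218 and 219 FPKM untreated and 144, 142 and 143 FPKM with H2O2 (-0.81, SE 0.16, adjusted p = 0.00650). EDEM1, which directs misfolded glycoproteins to degradation, rose from 10.7, 11.5 and 12.1 FPKM to 32.9, 33.4 and 32.9 FPKM (1.53, SE 0.09, adjusted p = 4.26e-05). The call of HSPA5 was lost without each of 3 single libraries and that of HSP90B1 without each of 4, with adjusted p up to 0.0245 without H2O2 replicate 1 and 0.0366 without H2O2 replicate 2. The log2 fold changes without untreated replicate 1 were -0.67 for HSPA5, -0.62 for HSP90B1, 1.48 for EDEM1 and 4.18 for ATF3.

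Cytosolic and mitochondrial heat shock chaperones had 9 risen and 0 fallen of 17 genes, with a median of 0.56, beside 13.6% and 12.4% of all genes. Without untreated replicate 1, 15 had risen and 2 fallen, beside 29.8% and 28.6%. HSPA6, a strictly inducible HSP70 gene, had 0.230, 0.166 and 0.205 FPKM untreated and 2.39, 2.57 and 2.80 FPKM with H2O2 (3.67, SE 0.21, adjusted p = 3.88e-05), and can share reads with other HSP70 genes. CRYAB, the small heat shock protein αB-crystallin and a marker of lens epithelium, had 2 reads untreated and 145 with H2O2, a ratio of 72.3 (exact 95% interval 19.7 to 603), and stayed between 0.866 and 1.0 FPKM. HSPA8, the constitutive HSC70, had 259, 244 and 225 FPKM untreated and 409, 415 and 423 FPKM with H2O2 (0.77, adjusted p = 0.00109). The HSP90 cochaperone gene CHORDC1 had 6.79, 5.78 and 5.64 FPKM untreated and 9.99, 9.78 and 10.1 FPKM with H2O2 (0.71, adjusted p = 0.00136). The calls of HSPA8 and CHORDC1 were lost without each of the 3 H2O2 libraries, with adjusted p up to 0.0109 and 0.0119.

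The heat shock element, the site of HSF1, was searched on both strands as alternating GAA, TTC and GAA with 2 free bases between them. It occurred in 4 of 10 windows of this list, in 1 of 465 windows (0.215%) of differentially expressed genes that rose and in 23 of 7566 (0.304%) of all tested genes. The 100 bases before the start of 3 of the 4 genes, chosen after the matches were seen, are shown with the element in capitals, read from either strand, and in CHORDC1 3 matches overlap.
HSPA6: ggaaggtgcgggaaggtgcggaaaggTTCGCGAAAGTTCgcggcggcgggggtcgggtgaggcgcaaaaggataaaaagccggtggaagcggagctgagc
HSPA8: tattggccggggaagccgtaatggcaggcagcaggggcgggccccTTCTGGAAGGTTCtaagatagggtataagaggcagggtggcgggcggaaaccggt
CHORDC1: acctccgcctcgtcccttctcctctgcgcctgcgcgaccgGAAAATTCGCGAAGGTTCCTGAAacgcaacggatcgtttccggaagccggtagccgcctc

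These stretches lie at chr1:161524440-161524539 on the plus strand for HSPA6, and on the minus strand at chr11:123062137-123062236 for HSPA8 and chr11:90223050-90223149 for CHORDC1. Other motifs were searched on both strands in the same windows. The AP-1 site TGANTCA was in 32 of 465 windows (6.88%) of genes that rose, against 346 of 7566 (4.57%). The antioxidant response element core TGACNNNGC was in 60 of 465 (12.9%) against 1168 of 7566 (15.4%), and the cAMP response element TGACGTCA in 13 of 465 (2.80%) against 276 of 7566 (3.65%). The ATF4 composite element TGATGNAAT was in 2 of 465 against 27 of 7566, and the endoplasmic reticulum stress element in 1 of 465 against 12 of 7566. Among the 463 windows of genes that rose in the fit lacking untreated replicate 1, the heat shock element was in 1 (0.216%), the AP-1 site in 31 (6.70%), the antioxidant core in 62 (13.4%) and the cAMP response element in 16 (3.46%).

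Of 24 NRF2 targets and antioxidant enzymes, 8 rose and 1 fell, with a median of 0.27, beside 13.6% and 12.4% of all genes. Without untreated replicate 1, 16 rose and 4 fell, beside 29.8% and 28.6%. HMOX1 (heme oxygenase 1) had a log2 fold change of 2.06. GSR (glutathione reductase) rose from 26.4, 21.2 and 21.6 FPKM to 50.7, 51.1 and 48.3 FPKM (1.11, SE 0.11, adjusted p = 0.000317). TXNRD1 (thioredoxin reductase 1) had 107, 121 and 126 FPKM untreated and 186, 195 and 187 FPKM with H2O2 (0.67, adjusted p = 0.00268). It spans the processed pseudogene RPL18AP3 on the same strand, which had a mean of 93.1 FPKM with H2O2. CAT, which encodes catalase, the enzyme that splits H2O2, fell from 8.04, 7.78 and 8.05 FPKM to 4.36, 4.37 and 4.56 FPKM (-0.85, SE 0.09, adjusted p = 0.000443). NFE2L2, which encodes NRF2, had a log2 fold change of -0.29 (adjusted p = 0.0578), and -0.20 (adjusted p = 0.000269) without untreated replicate 1. PRDX1 had 353, 222 and 225 FPKM untreated and 240, 251 and 247 FPKM with H2O2, so that its log2 fold change turned from -0.12 (adjusted p = 0.625) to 0.12 (adjusted p = 0.000566) without untreated replicate 1. The call of TXNRD1 was lost without each of the 3 H2O2 libraries, with adjusted p up to 0.0196. The log2 fold changes without untreated replicate 1 were 2.21 for HMOX1, 1.21 for GSR and -0.85 for CAT. Among 14 metallothioneins and genes of heme or iron handling, 6 rose and 0 fell (median 0.70), beside the 13.6% and 12.4% of all genes. Without untreated replicate 1, 12 rose and 1 fell, beside 29.8% and 28.6%. MT1G had 0 reads untreated and 53 with H2O2, at least 17.6-fold higher against a floor of 3 reads over the group. Its call was lost without H2O2 replicate 1 and without H2O2 replicate 3 (adjusted p up to 0.0127).

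Of 19 pro-apoptotic genes, 11 rose and 2 fell, with a median of 0.97, beside 13.6% and 12.4% of all genes. Without untreated replicate 1, 14 rose and 3 fell, beside 29.8% and 28.6%. The death receptor gene FAS had 4.82, 3.52 and 4.0 FPKM untreated and 46.3, 46.5 and 44.5 FPKM with H2O2 (3.47, SE 0.13, adjusted p = 1.12e-05). TNFRSF10A, a receptor of the ligand TRAIL, had 0.760, 1.03 and 1.37 FPKM untreated and 11.5, 11.5 and 11.4 FPKM with H2O2 (3.43, SE 0.20, adjusted p = 4.63e-05). BMF, a BH3-only gene, and CASP9, the initiator caspase of the apoptosome, fell. BMF had 5.99, 8.45 and 8.18 FPKM untreated and 3.15, 2.98 and 3.83 FPKM with H2O2 (-1.19, adjusted p = 0.00173), and CASP9 had means of 2.43 and 1.28 FPKM (-0.93, adjusted p = 0.00133). BAX had 41.4, 26.7 and 26.3 FPKM untreated and 56.7, 61.3 and 56.0 FPKM with H2O2 (0.88, SE 0.18, adjusted p = 0.00758), and 1.12 without untreated replicate 1. FAS had a log2 fold change of 3.59 and TNFRSF10A of 3.24 without untreated replicate 1. Several p53 targets, among them FAS and BAX, are also in this list.

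Of 10 anti-apoptotic genes, 5 rose and 1 fell, with and without untreated replicate 1, and the median was 0.40. Of all genes, 13.6% rose and 12.4% fell, and 29.8% and 28.6% without untreated replicate 1. BCL2L1 (Bcl-xL) had 20.1, 16.9 and 15.7 FPKM untreated and 52.3, 51.5 and 50.1 FPKM with H2O2 (1.54, SE 0.11, adjusted p = 8.77e-05). BCL2A1, an NF-κB-driven family member, had 2.67, 1.08 and 1.49 FPKM untreated and 8.90, 7.04 and 7.62 FPKM with H2O2 (2.17, adjusted p = 0.00157). BCL2 rose by 1.29 (SE 0.11, adjusted p = 0.000216) and XIAP, an inhibitor of caspases, by 0.55 (SE 0.09, adjusted p = 0.00344). BIRC2 (cIAP1) fell from 55.9, 44.3 and 45.7 FPKM to 27.9, 28.3 and 27.6 FPKM (-0.80, adjusted p = 0.00135). Calls of both groups of genes were lost without other single libraries, those of BAX and XIAP without each of 5, that of BIRC2 without each of 3, and those of BMF and CASP9 without each of 2. The adjusted p reached 0.0362 for BAX without H2O2 replicate 2 and 0.0238 for XIAP without H2O2 replicate 3. It reached 0.0134 for BMF and 0.0106 for BCL2A1 without H2O2 replicate 1, and 0.0113 for CASP9 and 0.0131 for BIRC2 without H2O2 replicate 3.

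Of 27 genes of the autophagy machinery and its receptors, 2 rose and 5 fell, with a median of -0.19, beside 13.6% and 12.4% of all genes. With untreated replicate 1 left out, 6 rose and 13 fell, beside 29.8% and 28.6%. WIPI1, which binds the lipids of the forming autophagosome, had 8.09, 8.61 and 8.78 FPKM untreated and 3.97, 4.15 and 4.37 FPKM with H2O2 (-1.03, SE 0.10, adjusted p = 0.000284). The ATG8 family gene GABARAPL1 had 25.9, 23.1 and 22.9 FPKM untreated and 12.8, 13.1 and 12.0 FPKM with H2O2 (-0.93, SE 0.09, adjusted p = 0.000335). The protease gene ATG4A rose with SQSTM1, by 0.62 (adjusted p = 0.00323). ATG7 itself fell by 0.70 on the log2 scale (SE 0.10, adjusted p = 0.00149), and it overlaps VGLL4 on the opposite strand. ATG3, the E2-like partner of ATG7, had 10.6, 6.86 and 6.69 FPKM untreated and 8.10, 7.99 and 8.08 FPKM with H2O2, and treated libraries lay within the untreated range. Its log2 fold change was 0.00 with all libraries and 0.24 (adjusted p = 0.000658) without untreated replicate 1. The call of ATG7 was lost without each of 2 single libraries and that of ATG4A without each of 5 (adjusted p up to 0.0143 and 0.0218, both without H2O2 replicate 1).

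Of 19 lysosomal genes, 0 rose and 2 fell (median -0.20), beside 13.6% and 12.4% of all genes. The counts were 3 and 10 without untreated replicate 1, beside 29.8% and 28.6%. The 2 were GAA, the acid α-glucosidase (-0.64, adjusted p = 0.00223), and CTSA, cathepsin A (-0.47, adjusted p = 0.00355). The call of GAA was lost without each of the 3 H2O2 libraries (adjusted p up to 0.0160), and that of CTSA without each of the 5 libraries other than untreated replicate 1 (up to 0.0318). Of 27 proteasome subunits, 0 rose and 0 fell, with a median of -0.21, whereas 10 rose and 5 fell without untreated replicate 1, with a median of 0.01. Every call among the proteasome subunits thus appeared with untreated replicate 1 left out.

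Of 18 genes of cholesterol synthesis and uptake, 13 fell, 1 rose and 4 were not called, with a median log2 fold change of -0.74. Without untreated replicate 1, 15 fell and 1 rose. Of all genes, 12.4% fell and 13.6% rose, and 28.6% and 29.8% without untreated replicate 1. LSS (lanosterol synthase) had 17.0, 19.2 and 18.3 FPKM untreated and 6.41, 6.91 and 6.85 FPKM with H2O2 (-1.44, SE 0.09, adjusted p = 5.73e-05). SQLE, the squalene epoxidase that acts just before LSS, rose from 34.3, 27.9 and 25.4 FPKM to 42.5, 43.4 and 43.2 FPKM (0.56, SE 0.12, adjusted p = 0.00913). The call of SQLE was lost without each of the 5 libraries other than untreated replicate 1, with adjusted p from 0.0307 to 0.0430, and with the replicate number as a block (adjusted p = 0.0180). It rose by 0.68 without untreated replicate 1, and LSS had -1.49.

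Of 21 genes of collagens, matrix and adhesion, 7 fell and 1 rose, with a median of -0.52, beside 12.4% and 13.6% of all genes. In the fit lacking untreated replicate 1, 19 fell and 2 rose, against 28.6% and 29.8% of all genes. LAMB1, a laminin chain, had 42.2, 53 and 50.2 FPKM untreated and 19.0, 20.5 and 19.3 FPKM with H2O2 (-1.31, SE 0.12, adjusted p = 0.000221). COL5A2, a fibrillar collagen, had 67.9, 80.6 and 80.6 FPKM untreated and 41.6, 41.9 and 41.7 FPKM with H2O2 (-0.88, SE 0.11, adjusted p = 0.000841). ITGA2, the α2 subunit of a collagen receptor, rose from 5.81, 11.8 and 11.4 FPKM to 52.7, 53.2 and 55.2 FPKM (2.46, SE 0.27, adjusted p = 0.000524). The summed mesenchymal markers, between 801 and 878 FPKM untreated and between 539 and 553 FPKM with H2O2, were lower with this list and share COL1A1, COL1A2 and FN1 with it. COL1A1 (means of 437 and 243 FPKM) and VIM (280 and 193 FPKM) made up most of the sum. COL1A1, TAGLN and PDGFRB fell, whereas ACTA2, which overlaps FAS on the opposite strand, rose (1.22, adjusted p = 0.00139). VIM, FN1 and COL1A2 fell only without untreated replicate 1, and S100A4 was not called. The part of these markers in the result was not tested. The log2 fold changes without untreated replicate 1 were -1.41 for LAMB1, -0.96 for COL5A2 and 2.20 for ITGA2.

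Among 18 genes of YAP, TGF-β and growth factor signalling, 9 rose and 3 fell, with a median of 0.81, beside 13.6% and 12.4% of all genes. Without untreated replicate 1, 13 rose and 4 fell, beside 29.8% and 28.6%. EREG (epiregulin), a neighbour of AREG on chromosome 4 and a further EGF receptor ligand, had 0.0636, 0.00980 and 0.0567 FPKM untreated and 1.97, 1.90 and 1.82 FPKM with H2O2 (5.41, SE 0.35, adjusted p = 5.95e-05). ID1, a target of BMP signalling, had 230, 136 and 130 FPKM untreated and 56.3, 59.2 and 54.7 FPKM with H2O2 (-1.55, adjusted p = 0.00160), and the inhibitory SMAD6 had a log2 fold change of -1.30 (adjusted p = 0.00177). The call of ID1 was lost without each of the 3 H2O2 libraries (adjusted p up to 0.0130). That of SMAD6 was lost without H2O2 replicate 1 and without H2O2 replicate 3 (up to 0.0132).

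Interferon-stimulated genes had 3 risen and 3 fallen of 18, with a median of -0.12, beside 13.6% and 12.4% of all genes. Both counts were 5 without untreated replicate 1, beside 29.8% and 28.6%. IFIT1 fell from 1.62, 1.09 and 1.03 FPKM to 0.203, 0.303 and 0.250 FPKM (-2.30, SE 0.26, adjusted p = 0.000628), and the RNA sensor gene IFIH1 fell by 0.61 (adjusted p = 0.00469). IRF1, a transcription factor that interferon and NF-κB both induce, rose from 3.87, 3.89 and 3.45 FPKM to 6.53, 6.51 and 7.13 FPKM (0.84, SE 0.09, adjusted p = 0.000558). OAS2 rose by 1.82 (adjusted p = 0.00245) and stayed below 0.65 FPKM. The call of IFIH1 was lost without each of 4 single libraries and that of OAS2 without each of the 3 H2O2 libraries, with adjusted p up to 0.0315 and 0.0152.

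Of 13 transcripts of the mitochondrial genome, 7 fell and 0 rose, with a median of -0.71, beside 12.4% and 13.6% of all genes. Without untreated replicate 1, 10 fell and 2 rose, beside 28.6% and 29.8%. MT-ND6, encoded on the light strand, had 1364, 1084 and 1049 FPKM untreated and 496, 498 and 478 FPKM with H2O2 (-1.25, SE 0.12, adjusted p = 0.000341). MT-CO3, a subunit of cytochrome c oxidase, had 9175, 6987 and 6512 FPKM untreated and 3437, 3490 and 3451 FPKM with H2O2 (-1.13, SE 0.15, adjusted p = 0.00116). Its call was lost without each of the 3 H2O2 libraries (adjusted p up to 0.0115) and with limma on log2 FPKM plus 1. The log2 fold changes without untreated replicate 1 were -1.13 for MT-ND6 and -0.98 for MT-CO3, the latter short of the fold that differential expression required. All mitochondrial genes together took between 4.29% and 4.42% of reads in untreated and between 3.16% and 3.27% in H2O2-treated libraries. Among 22 genes of glycolysis and hypoxia, 5 rose and 2 fell (median 0.16), beside 13.6% and 12.4% of all genes. The counts were 11 and 6 without untreated replicate 1, beside 29.8% and 28.6%. HK2 (hexokinase 2) rose from 1.64, 2.64 and 2.53 FPKM to 8.39, 9.56 and 9.18 FPKM (1.99, SE 0.19, adjusted p = 0.000290). VEGFA rose from 8.44, 10.0 and 9.41 FPKM to 34.7, 33.6 and 34.9 FPKM (1.88, SE 0.11, adjusted p = 3.66e-05). LDHA (-0.62, adjusted p = 0.00824) and PFKL (-0.46, adjusted p = 0.00457) fell, and both lost their call without each of the 5 libraries other than untreated replicate 1 (adjusted p up to 0.0472 and 0.0380).

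**Figure D2:**
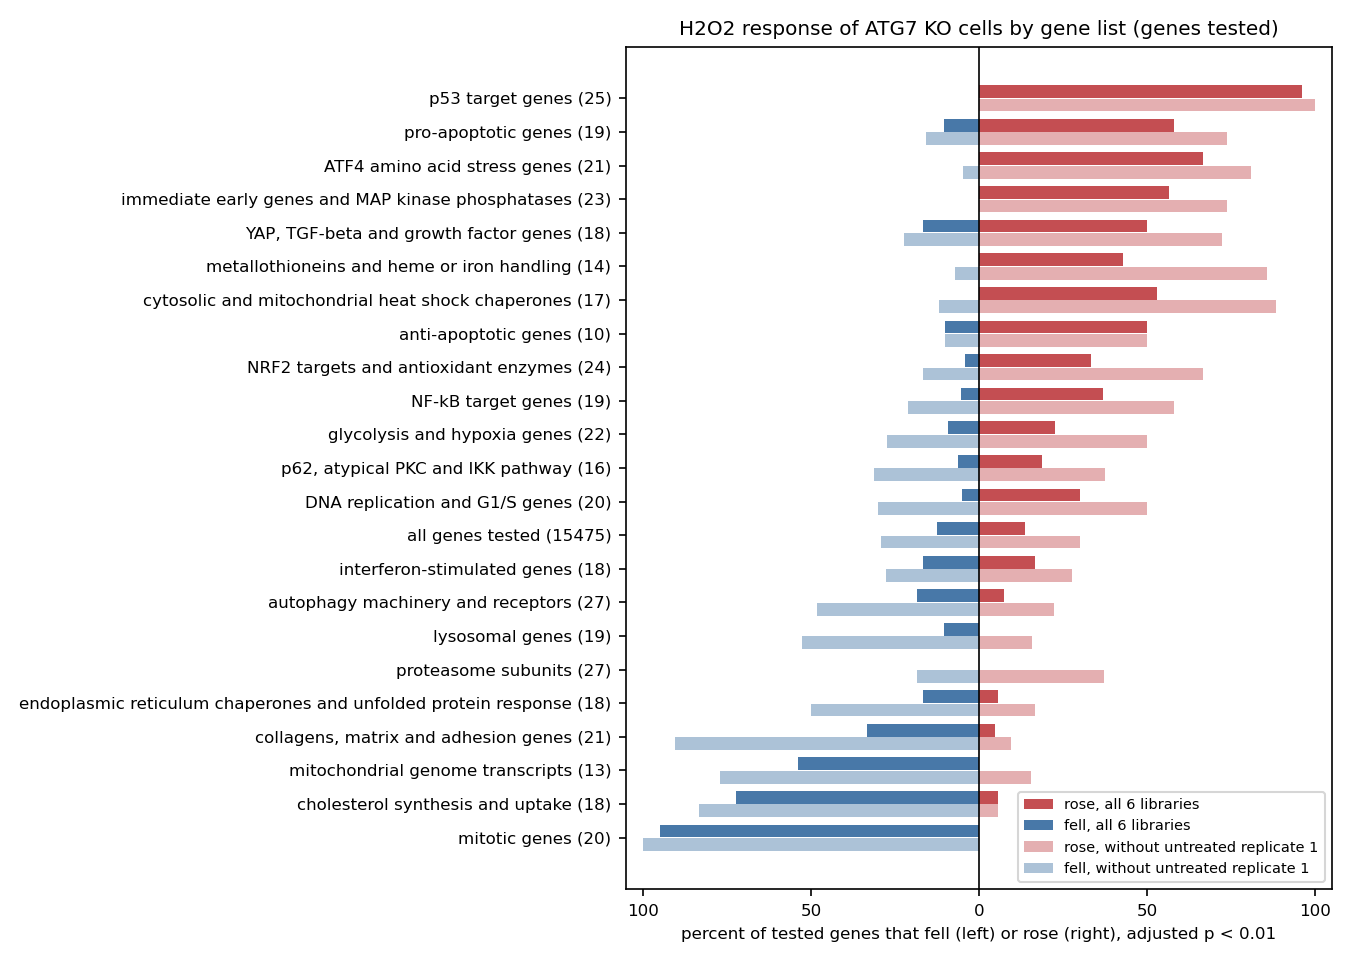
Percent of the tested genes of each list that fell (left) or rose (right) at an adjusted p under 0.01 in ATG7 KO cells, with all 6 libraries (dark) and without untreated replicate 1 (pale), ordered by the median log2 fold change and with the number tested in parentheses. Of the p53 targets 24 of 25 rose and of the mitotic genes 19 of 20 fell, while in all genes tested both shares stay near 13% with all 6 libraries.

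Whether ATG7 KO cells responded otherwise than WT cells was tested as the interaction of cell line and treatment in all 12 libraries. Of 16856 genes, 1184 (7.02%) had a higher and 1182 (7.01%) a lower response in ATG7 KO cells at an adjusted p under 0.01. Without untreated ATG7 KO replicate 1, 3122 of 17543 (17.8%) were higher and 2852 (16.3%) lower. The number of higher responses fell to between 622 and 775, and that of lower responses to between 710 and 771, when 1 of the WT libraries other than H2O2 replicate 3, or 1 of the H2O2-treated ATG7 KO libraries, was left out.

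The lists in which ATG7 KO cells most often had the lower response were those of immediate early genes and of NF-κB. Over all genes, 7.01% had a lower and 7.02% a higher response, or 16.3% and 17.8% without untreated ATG7 KO replicate 1. Of 23 immediate early genes and phosphatases, 18 had a lower and 0 a higher response (22 and 1 without untreated ATG7 KO replicate 1), and the median response was 0.89 in ATG7 KO and 2.23 in WT cells. FOS had responses of 1.61 in ATG7 KO and 5.12 in WT cells, differing by -3.51 (SE 0.42, adjusted p = 0.000169), and FOSB of 1.14 and 4.5, differing by -3.36 (SE 0.24, adjusted p = 7.30e-06). Of 19 NF-κB targets, 15 had a lower and 0 a higher response (16 and 1 without that library), with medians of 0.21 and 1.5. NFKBIA had responses of -0.44 in ATG7 KO and 1.56 in WT cells, differing by -2.01 (SE 0.17, adjusted p = 2.13e-05). IL6 had responses of 2.65 and 4.78, differing by -2.13 (SE 0.27, adjusted p = 0.000217). Its mean level was 2.33 FPKM in untreated WT, 64.2 in H2O2-treated WT, 18.3 in untreated ATG7 KO and 115 FPKM in H2O2-treated ATG7 KO cells. For IL1B, whose responses differed by -0.98, these means were 6.04, 111, 51.1 and 472 FPKM. A lower response thus went with a higher level in ATG7 KO cells both before and after H2O2 for IL6 and IL1B. In the same order, the means were 52.2, 155, 133 and 97.8 FPKM for NFKBIA and 27.1, 13.1, 66.2 and 9.94 FPKM for CCL2. NFKBIA and CCL2 were thus higher in ATG7 KO than in WT cells before H2O2 and lower after it.

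The cholesterol genes had 12 lower and 0 higher responses among 18 (15 and 0 without untreated ATG7 KO replicate 1), with median responses of -0.74 in ATG7 KO and 0.08 in WT cells. Of the endoplasmic reticulum genes, 6 of 18 were lower and 1 higher (11 and 3 without that library). Beside these, 7.01% of all genes were lower and 7.02% higher (16.3% and 17.8% without that library). HSPA5 fell in ATG7 KO cells, and its WT response was 1.25, differing by -2.06 (SE 0.16, adjusted p = 1.04e-05). Of 20 mitotic genes, 10 had a lower and 0 a higher response (12 and 3 without that library), and PLK1 fell by 3.68 in ATG7 KO cells beside -1.59 in WT cells, differing by -2.08 (SE 0.12, adjusted p = 2.05e-06). The WT values are those of a fit of the 6 WT libraries alone.

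The p53 targets had 9 higher and 3 lower responses among 25 (12 and 5 without untreated ATG7 KO replicate 1), and medians of 2.77 in ATG7 KO and 2.65 in WT cells. FAS was among the higher (0.71, SE 0.14, adjusted p = 0.00254). Its mean level was 4.11 FPKM untreated and 45.8 FPKM with H2O2 in ATG7 KO cells, and 6.57 and 44.8 FPKM in WT cells. The lines thus differed in FAS mainly before H2O2. The ATF4 genes had 5 higher and 8 lower among 21 (6 and 9), and the heat shock chaperones 2 higher and 7 lower among 17 (3 and 6). HSPA6 had the widest difference of the named genes, with responses of 3.67 in ATG7 KO and 11.45 in WT cells. The difference was -7.78 (SE 0.63, adjusted p = 1.72e-05), and without untreated ATG7 KO replicate 1 it had an SE of 1.88 (adjusted p = 0.0122). WT cells had 0.0484, 0.0459 and 0 FPKM of HSPA6 untreated and a mean of 96.8 FPKM with H2O2. The size of the WT response and of the difference thus rests on an untreated level near the floor. The mitochondrial transcripts had 6 higher and 0 lower responses among 13 (7 and 0), with medians of -0.71 in ATG7 KO and -1.26 in WT cells. Autophagy genes had 3 higher and 1 lower of 27 (8 and 4), and proteasome subunits 0 higher and 1 lower of 27 (0 and 10). The p62, PKC and IKK pathway had 1 higher, TAB3, and 2 lower of 16 (3 and 2). Of all genes tested for the difference, 7.02% were higher and 7.01% lower (17.8% and 16.3% without untreated ATG7 KO replicate 1).

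Of single genes, GRHL3 had the highest difference among those of at least 5 FPKM in a group, with responses of 8.80 in ATG7 KO and 4.80 in WT cells (3.99, SE 0.53, adjusted p = 0.000293). GRHL3 averaged 0.0141 FPKM untreated and 7.26 FPKM with H2O2 in ATG7 KO cells, and 0.0993 and 2.84 FPKM in WT cells. The size of its difference thus rests in part on untreated levels near the floor. CDH10 was also higher, with 6.5 and 3.92 (2.58, SE 0.24, adjusted p = 3.06e-05). Its mean level was 0.245 FPKM untreated and 22.3 FPKM with H2O2 in ATG7 KO cells, and 1.52 and 23.2 FPKM in WT cells. The lines thus differed in CDH10 mainly before H2O2. CSF3, the cytokine G-CSF, had the lower response, with 3.91 in ATG7 KO and 7.85 in WT cells (-3.93, SE 0.56, adjusted p = 0.000479). It rose in ATG7 KO cells from 8.11, 3.82 and 4.26 FPKM to 85.8, 78.7 and 79.0 FPKM, and in WT cells from a mean of 0.0677 to 16.3 FPKM, so that both ATG7 KO levels were above those of WT. ID2, an inhibitor of basic helix-loop-helix factors, had 1.29, 0.611 and 0.735 FPKM untreated and 0.742, 0.828 and 0.706 FPKM with H2O2, with overlapping groups. Its responses were -0.21 in ATG7 KO and 3.39 in WT cells (-3.59, SE 0.46, adjusted p = 0.000241).

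**Figure D3:**
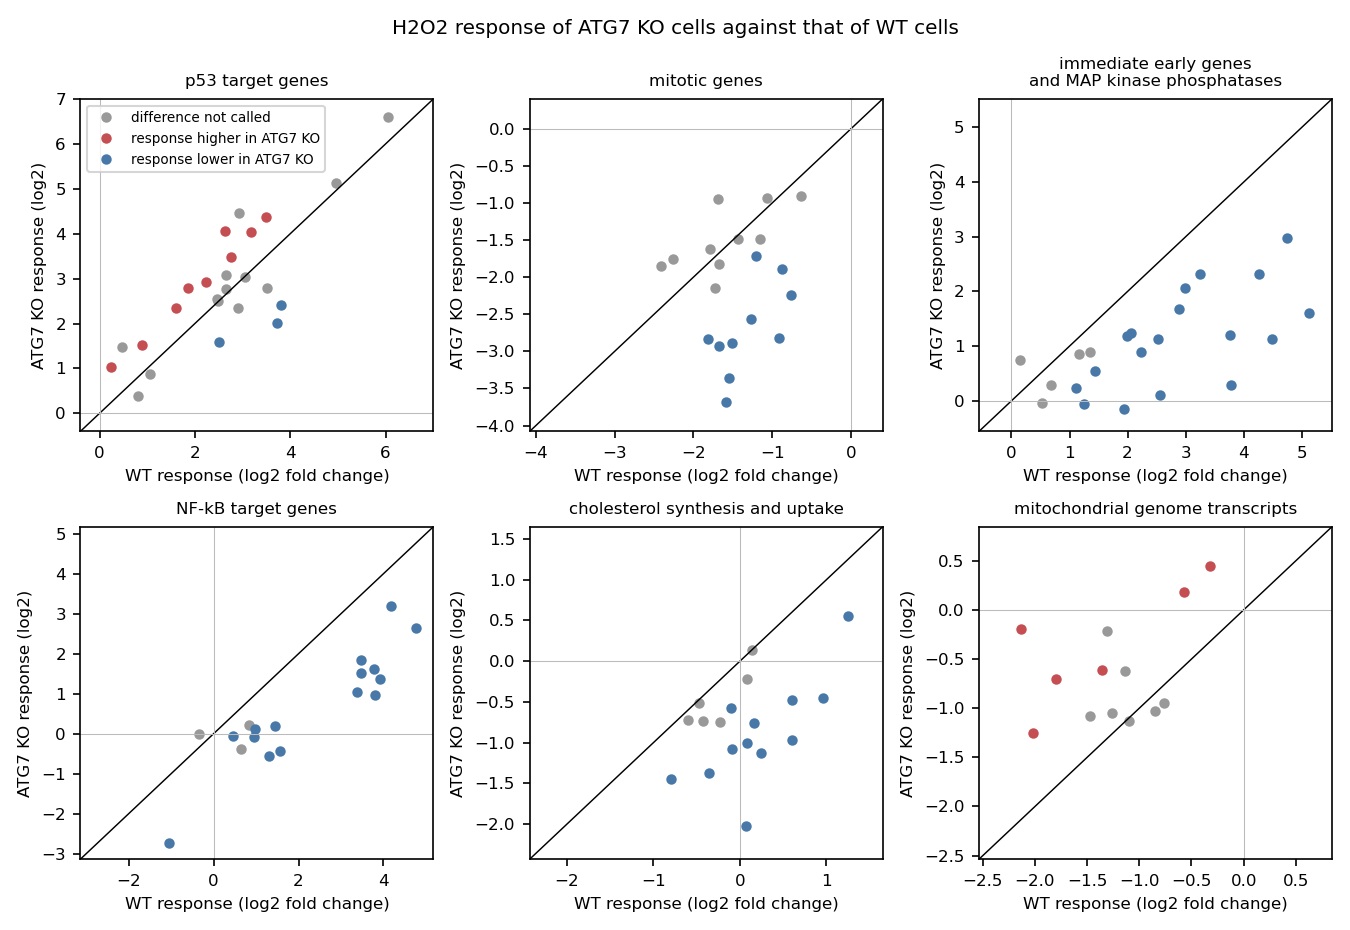
Log2 fold change with H2O2 in ATG7 KO cells (vertical) against that in WT cells (horizontal) for the members of 6 lists, with the line of equal response, coloured by the test of the difference. All 18 immediate early genes and all 15 NF-κB targets with a called difference lie below the line, while 9 of the called p53 targets lie above and 3 below it.

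The responding genes were also described by size. The length is the one the deposited tables give for each gene, and the span is the distance from gene start to end. The median log2 fold change in ATG7 KO cells was -0.23 for 1460 genes of 1 to 2 kb in length and 0.09 for 2978 genes over 8 kb. Without untreated replicate 1 these medians were -0.07 and -0.00, and the deviation of that library from the other two untreated ones had medians of 0.35 and -0.38 in the same bins. WT cells had 0.21 and -0.26. By span, the median for 1057 genes over 200 kb minus that for 2520 genes under 5 kb was 0.11 with all libraries and turned to -0.10 without untreated replicate 1. In the WT response, the median was 0.19 under 5 kb and -0.46 over 200 kb. Among genes over 200 kb, 6.53% were differentially expressed and rose and 7.28% fell in ATG7 KO cells, and 5.01% and 9.65% without untreated replicate 1.

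**Figure D4:**
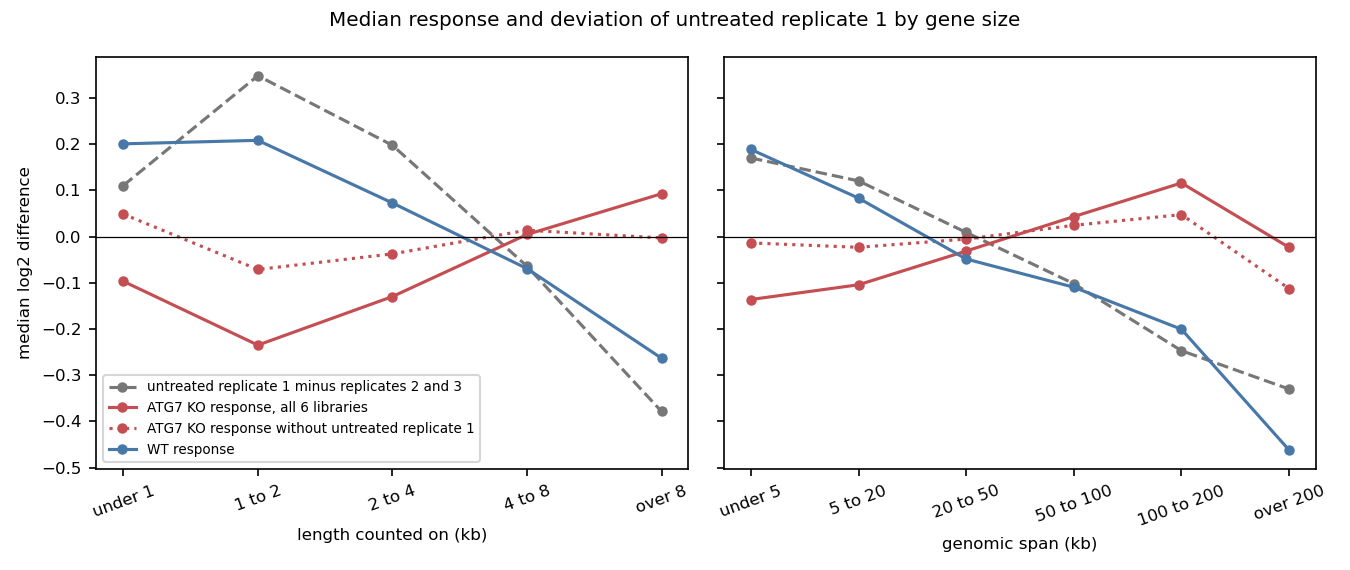
Median log2 difference over tested genes by length (left) and genomic span (right) for the ATG7 KO response with all libraries (solid red) and without untreated replicate 1 (dotted red), the WT response (blue), and untreated ATG7 KO replicate 1 minus the mean of replicates 2 and 3 (dashed grey). The medians of the ATG7 KO response lie closer to 0 without untreated replicate 1 in most bins, and the WT response runs from 0.19 under 5 kb to -0.46 over 200 kb.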

How the data were processed

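RNA of HLE-B3 cells was sequenced from libraries of the NEBNext Ultra kit. Read counts per gene and FPKM were both deposited by the authors. Per the submitters' processing notes, HISAT2 2.0.5, featureCounts 1.5.0-p3 and GRCh38 (hg38) were used, and how strand and multiply mapped reads were counted is not given in the sources used here. The FPKM the authors deposited equal count over gene length and library total, up to 1 factor per library, and were used for levels only.

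Counts were tested with edgeR 4.0.16 (robust quasi-likelihood, TMM, filterByExpr with a minimum count of 10) in R 4.3.3, two-sided, with Benjamini-Hochberg adjustment over all genes tested, after a test on simulated data. The difference from WT was the interaction term in all 12 libraries. Alternatives were RLE scaling, DESeq2 1.42.0, other filters, glmTreat, limma 3.58.1 on log2 FPKM plus 1, all libraries in 1 fit, the replicate block, and each library left out. No set test was run. The exact intervals of read ratios cover counting error only.

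The genes and lists were chosen with earlier results of these data known. Genes were named by rule: 12 genes at each end of the log2 fold change among differentially expressed genes of at least 5 FPKM whose groups did not overlap and that held without untreated replicate 1, up to 2 called members per list and direction, genes the study is about, the 6 highest and 6 lowest differences from WT, and genes furthest off in untreated replicate 1. CCNG1, MKI67, CCNB2, BUB1B, KIF11, HSPA8 and CHORDC1 were named after their values were seen. Promoter sequences are from RefSeq (GRCh38.p14). Results for some genes are not reported here.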

Additional observations from a re-analysis of the deposited data

Results flagged for a closer look

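The response to H2O2 differed between ATG7 KO and WT cells by the interaction test of edgeR for 1184 genes with a higher and 1182 with a lower response in ATG7 KO cells at an adjusted p under 0.01. The named genes past that threshold follow, as the log2 response of ATG7 KO cells minus that of WT cells. Among the 24 genes that changed most in ATG7 KO cells, the differences were 3.99 for GRHL3, 2.58 for CDH10, 1.5 for ACER2, 1.07 for GDF15, -2.08 for PLK1, -1.96 for PSRC1, -2.23 for MXD3, -1.80 for CCNB1, -1.44 for HMMR, -1.25 for KIF20A, -1.28 for DLGAP5, -1.38 for AURKA, -1.02 for BUB1, -1.90 for CDC20, -1.54 for NEK2 and -1.04 for DEPDC1. For CCNB2, a further mitotic gene, it was -1.29. Among immediate early, NF-κB and interferon genes the differences were -1.77 for DUSP5, -1.95 for EGR2, -3.51 for FOS, -3.36 for FOSB, -0.98 for IL1B, -2.13 for IL6, -1.68 for CCL2, -2.01 for NFKBIA and -1.31 for IRF1. Among chaperones and redox genes they were -2.06 for HSPA5, 0.66 for EDEM1, -7.78 for HSPA6, 0.87 for HSPA8 and -0.53 for NFE2L2. Genes of apoptosis, p62 signalling and autophagy had 0.71 for FAS, -1.87 for BCL2A1, 0.85 for TAB3, 0.69 for ATG4A and -0.76 for GABARAPL1. Genes of cholesterol, growth factor signalling, mitochondria and glycolysis had -0.65 for LSS, -0.69 for SQLE, -1.05 for ID1, 0.77 for MT-ND6, 1.94 for MT-ATP8 and 0.92 for HK2. Of the genes with the widest differences at 5 FPKM or more, the remaining values were -3.93 for CSF3, -3.59 for ID2, -4.17 for ARHGAP31-AS1, -3.18 for RPL35P1, 3.03 for AL355032.1, 2.52 for AC078817.1 and 2.12 for NAP1L4P1. The difference of HSPA6, which was near the floor in untreated WT cells, did not pass without untreated ATG7 KO replicate 1 (adjusted p = 0.0122). Those of GDF15, ACER2, EGR2, NFE2L2, BCL2A1, ATG4A, ID1, HK2, MT-ND6 and AC078817.1 did not pass in at least 1 of the fits that left out another library. RPL35P1, NAP1L4P1, AL355032.1 and AC078817.1 are processed pseudogenes whose reads may come from related genes, NAP1L4P1 lies within CD58, AC078817.1 overlaps OTOGL and ARHGAP31-AS1 overlaps ARHGAP31 on the opposite strand, and MT-ATP8 overlaps MT-ATP6. No group of 3 libraries was examined for a single outlying value by a test.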

How the results depend on the processing

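Over the 6 fits that each left out 1 library, between 1045 and 4768 genes rose and between 722 and 4573 fell, and between 495 and 889 were differentially expressed and lower. The highest values came without untreated replicate 1 and the lowest without H2O2 libraries. With all 12 libraries in 1 fit, 3308 rose and 3220 fell. glmTreat against a log2 fold change of 1 called 391 higher and 173 lower, and limma on log2 FPKM plus 1 called 382 lower. For the difference from WT, DESeq2 called 1791 higher and 1912 lower, and without a filter on low counts 2000 and 2054 were called, with 527 higher past all thresholds. Leaving out 1 library gave 622 to 3122 higher, 710 to 2852 lower, and 212 to 484 higher past all thresholds. Without untreated replicate 1, risen list members went from 120 to 194 and fallen ones from 71 to 141, and the median log2 fold change over 200 kb minus that under 5 kb turned from 0.1128 to -0.0989. The sign also turned for PRDX1 (-0.2393 to 0.124 over single libraries left out, positive without untreated replicate 1), ID2 (-0.4173 to 0.1566, likewise) and ATG3 (-0.1157 to 0.238, and -0.003 without a filter and -0.0011 with all 12 libraries). The cause was not tested.

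Same-numbered untreated and H2O2 libraries of ATG7 KO cells deviated together with r of 0.108, 0.002 and 0.095, so the numbers were not taken as pairs. With the replicate block, 1604 genes rose, 1342 fell, 920 were differentially expressed and higher and 725 lower, and 779 had a higher and 834 a lower response than WT. Of the named genes, 11 lost their call under the block, and RLE scaling changed 0.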
